A study of Homo sapiens with 12 samples.

Results

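A549 and NCI-H1299 (H1299 from here on) are the 2 human lung cancer cell lines of a study that knocked out PA200, the proteasome activator encoded by PSME4, with CRISPR/Cas9. The comparison described here is the baseline one: 3 wild-type A549 libraries against 3 wild-type H1299 libraries, 6 of the 12 libraries of the series, with no knockout library in the fit. The remaining 6 libraries, 3 PA200 knockout libraries of A549 and 3 of H1299, served only to repeat the same contrast at the end. The libraries were picked by the genotype and cell line in their labels, and all 59050 gene symbols shared by both deposited count tables entered. Of these symbols 35974 had at least 1 count in the 6 wild-type libraries.

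A549 was derived from a lung adenocarcinoma and is widely used as a model of alveolar epithelium. As background, it is known to carry mutant KEAP1 and STK11 and to have lost the CDKN2A locus. H1299 was derived from a lymph node metastasis of a non-small cell lung carcinoma. It is known to carry mutant NRAS. KEAP1 marks the transcription factor NRF2 for degradation, and NRF2 drives genes of glutathione, thioredoxin, NADPH and detoxification metabolism. STK11 encodes the kinase LKB1, which restrains CREB coactivators. An mRNA level measures none of these mutations.

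No label states if the 3 libraries of each line came from separate cultures or clones, so p-values measure only the spread between these libraries, which may be technical. Both lines were grown for 48 h, from 1500000 plated A549 cells and 1000000 plated H1299 cells. Each line has its own deposited table. Cell line, table and plating number cannot be told apart. Every difference below is A549 over H1299. Levels are in CPM, the count per 1000000 counts of the scaled library total, and "higher" and "lower" mean an adjusted p under 0.05 in edgeR's quasi-likelihood test over all 20302 genes tested.

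The A549 libraries held 16599401, 21112339 and 18475211 counts and the H1299 libraries 30160789, 33671009 and 21405412 counts. A floor of 3 counts corresponds to 0.142 to 0.181 CPM of the unscaled total in A549 and to 0.0891 to 0.140 CPM in H1299, which covers counting error only. The lines parted on a first principal component with 92.8% of the variance, and the second (3.36%) spread the 3 A549 libraries from 50.6 to -47.4 with the H1299 libraries between -3.29 and 2.24. Across genes, log2 CPM correlated at 0.972 to 0.983 between A549 libraries and at 0.991 to 0.992 between H1299 libraries. The biological coefficient of variation was 0.231 in A549 and 0.122 in H1299. Within a line, libraries differed by more than sampling noise.

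Markers of other cell types were near 0. The leukocyte genes PTPRC, CD3E, LYZ and HBB had no count in any of the 6 libraries. Of 13 leukocyte markers 10 were at 0 in A549 and 6 in H1299, and their summed level was 18.9 to 34.0 CPM in A549 and 66.4 to 93.7 CPM in H1299. Of the 4 tested, 1 was higher and 2 lower in A549, with a median log2 difference of -0.94, or -0.06 with 1 higher and 1 lower after thinning to 1 depth. Most of that sum was CD68, a lysosomal protein also made outside macrophages, at 27.9, 20.6 and 14 CPM in A549 and 90.6, 60.8 and 71.6 CPM in H1299. HBA1, an alpha globin, had no count in A549 and 0.782, 0.656 and 0.586 CPM in H1299. The 14 endothelial and fibroblast markers summed to 3.59 to 12.2 CPM in A549 and 1.63 to 2.93 CPM in H1299, and both tested members were higher in A549 with a median of 5.42. PECAM1, of endothelium, had 1 library above 0 in A549 and 2 in H1299, none over 0.0978 CPM.

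The CDKN2A locus separated the lines. CDKN2A, which encodes the cell cycle inhibitor p16 and ARF at chr9:21967753-21995301 (GRCh38, minus strand), had 0 counts in all A549 libraries, against 49.9, 43.5 and 43.1 CPM in H1299. It was at least 828-fold lower in A549, taking 3 counts over the group as the floor. CDKN2B, the neighbouring inhibitor p15 at chr9:22002903-22009363, had 0 counts in A549 and 68.2, 30.2 and 40.4 CPM in H1299, at least 836-fold lower in A549. MTAP, an enzyme of methionine salvage at chr9:21802543-21937651, was not at 0. It had 8.66, 9.21 and 9.49 CPM in A549 and 82.0, 65.9 and 68.6 CPM in H1299, a log2 difference of -2.98 ± 0.14 (SE; edgeR adjusted p = 4.67e-07). CDKN2B-AS1, the antisense RNA that starts within CDKN2A, had 6.17, 6.16 and 6.17 CPM in A549 and 9.51, 9.02 and 9.15 CPM in H1299. The strand setting of the counting is not given in the sources used here. How reads were assigned where this antisense gene overlaps CDKN2A and CDKN2B is therefore not known. In A549 the antisense gene had 336 counts, with CDKN2A and CDKN2B at 0. On either side, KLHL9 was higher in A549 (53.3 ± 14.2 CPM in A549, 19 ± 3.43 CPM in H1299, SD, n = 3 each) and DMRTA1 was lower (2.29 ± 0.479 CPM in A549, 10.9 ± 3.14 CPM in H1299).

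**Figure D1:**
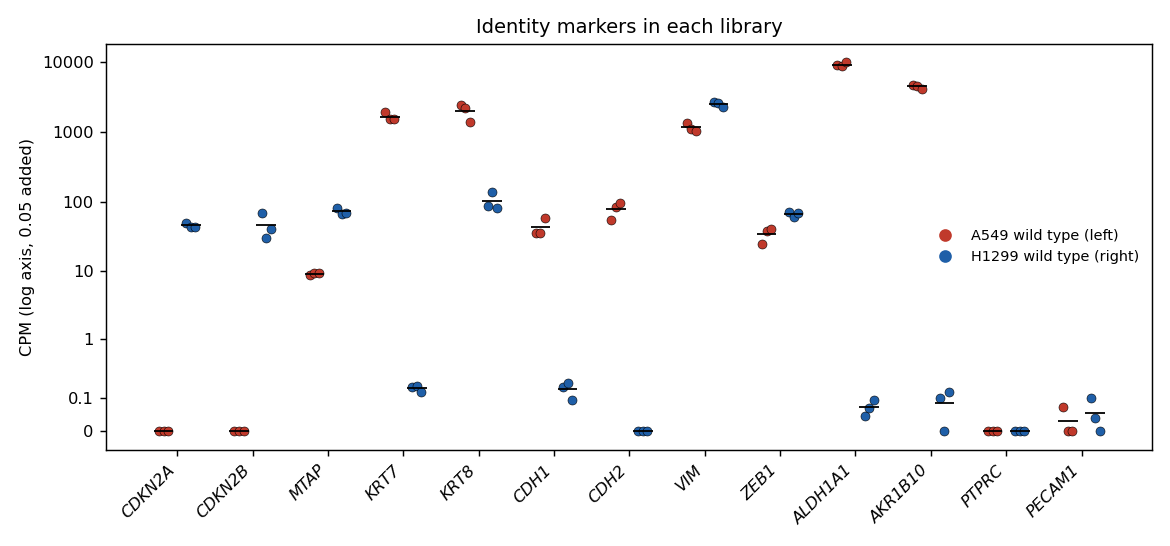
Levels of 13 identity markers in each library (vertical axis, CPM on a log scale with 0.05 added); A549 wild type in red on the left and H1299 wild type in blue on the right of each pair, with bars at the means (n = 3 libraries each). CDKN2A and CDKN2B lie at 0 in the A549 libraries, CDH2 lies at 0 in the H1299 libraries, and PTPRC lies at 0 in all.

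Over all genes, 12584 of 20302 tested (62%) differed between the lines. Of these, 6353 were higher in A549 (31.3%) and 6231 were lower (30.7%), and the median log2 difference of all genes tested was -0.002. At a difference of at least 4-fold, 3687 genes (18.2%) were called, 2130 higher (10.5%) and 1557 lower (7.67%) in A549. In 14072 genes (69.3%) the A549 and H1299 libraries did not overlap. In data simulated at the same depth and spread, only a small share of genes was changed. There the test recovered 10.4%, 49.3% and 90.9% of 1.5-, 2- and 4-fold changes, with 8.3% of its calls false. Both figures depend on the share of genes changed, so they do not carry over to a comparison with 62% called. In the gene lists below, a member with too few counts in both lines was not tested, and one that was tested only through its level in 1 line had to differ, so the counts and medians describe the tested members. The called members of each list stand beside 62% of all genes called, 31.3% higher and 30.7% lower.

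The genes that stood furthest apart were abundant in one line and at or near 0 counts in the other. CYP24A1, the vitamin D 24-hydroxylase, had 1375, 1451 and 1504 CPM in A549 and 0 counts in H1299, at least 42379-fold higher. KRT81, a hair keratin, had 1782, 1411 and 1040 CPM in A549 and 0 counts in H1299, though its reads may be shared with the near-identical KRT86. CA12, a membrane carbonic anhydrase, had 544, 566 and 846 CPM in A549 and 0 counts in H1299. The other abundant A549 genes without a count in H1299 included S100A6, a calcium-binding protein, at 739.7 ± 322 CPM (SD, n = 3), and IGFBP3, a binding protein of insulin-like growth factors, at 621 ± 290.2 CPM. CPLX2, a complexin of vesicle fusion, had 592, 691 and 835 CPM in A549 against 2 counts in all H1299 libraries, a ratio of 31170 (95% counting interval 8628 to 257387).

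In the other direction several of the leading genes are known for germ line expression. TKTL1, a transketolase-like protein, had 0 counts in A549 and 179, 321 and 207 CPM in H1299, at least 4406-fold lower in A549. CTCFL, the testis paralog of CTCF, had 0 counts in A549 and 192, 174 and 208 CPM in H1299, at least 3429-fold lower. TDRD9, a helicase of the piRNA pathway, had 0 counts in A549 and 115, 127 and 128 CPM in H1299. GTSF1, another piRNA factor, FAM9C and PAGE2B followed at 61.4 ± 5.77, 87.4 ± 10.9 and 86.3 ± 13.4 CPM in H1299 (SD, n = 3) with 0 counts in A549. Among the others, NTSR1, the neurotensin receptor, had 1 count in the A549 libraries together and 146, 97.1 and 135 CPM in H1299. WNT16, a Wnt ligand, had 0 counts in A549 and 84.6, 55.7 and 73.0 CPM in H1299.

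**Figure D2:**
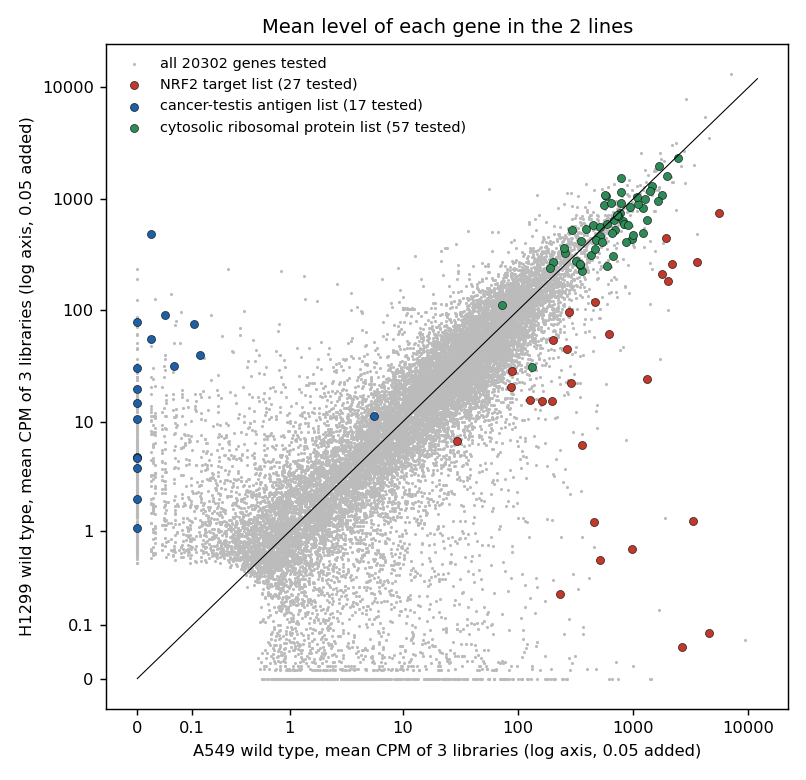
Mean level of each tested gene in the 2 lines, on log axes of CPM, with the NRF2 target, cancer-testis and ribosomal protein lists coloured. The 27 NRF2 targets lie on the A549 side and the 17 tested cancer-testis antigens on the H1299 side, and most of the 57 ribosomal proteins lie near the diagonal.

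All 27 NRF2 targets on the list were higher in A549, 23 of them at least 4-fold, with a median log2 difference of 3.38. Their summed level was 32054 to 37986 CPM in the A549 libraries and 2630 to 2716 CPM in the H1299 libraries. No gene of the list overlapped between the lines, and neither did 69.3% of all genes tested. All 27 also stayed higher with each other scaling and tool for which the lists were recounted, without any 1 library and in the knockout libraries, with medians of 3.14 to 3.65. Of the genes that the rule described under processing picked, the aldo-keto reductases differed most. AKR1B10, which reduces aldehydes and retinal, had 4817, 4638 and 4142 CPM in A549 and 0.0978, 0 and 0.135 CPM in H1299. AKR1C2 and AKR1C3, which reduce steroid ketones, stood at 3289 ± 285 and 2674 ± 529 CPM in A549 against 1.25 ± 0.159 and 0.0463 ± 0.0183 CPM in H1299 (SD, n = 3 each). The AKR1C genes, and AKR1B10 with AKR1B15, are near-identical, so how reads were split among them is uncertain. The further members named here, as in the gene groups below, were chosen after their values were seen.

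Promoter windows of 4 NRF2 targets are shown because they hold the core of the antioxidant response element, the motif that NRF2 binds. Each is the 250 bases before a gene start in RefSeq (GRCh38.p14), 5′ to 3′ on the gene's strand, and capitals mark a match to TGACNNNGC on either strand.
GCLM, chr1:93909431-93909680, minus strand, match on the opposite strand: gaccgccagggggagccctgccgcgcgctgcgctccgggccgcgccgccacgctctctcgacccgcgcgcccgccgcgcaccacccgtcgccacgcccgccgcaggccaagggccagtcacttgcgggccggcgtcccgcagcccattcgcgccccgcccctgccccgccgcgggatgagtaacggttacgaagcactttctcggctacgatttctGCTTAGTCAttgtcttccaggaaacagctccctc
ME1, chr6:83431052-83431301, minus strand, match on the gene's strand: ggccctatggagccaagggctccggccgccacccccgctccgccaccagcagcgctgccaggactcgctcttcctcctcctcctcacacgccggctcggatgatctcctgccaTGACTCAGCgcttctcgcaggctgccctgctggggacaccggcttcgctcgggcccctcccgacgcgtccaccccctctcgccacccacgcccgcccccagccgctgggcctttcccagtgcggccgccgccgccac
GPX2, chr14:64942746-64942995, minus strand, match on the opposite strand: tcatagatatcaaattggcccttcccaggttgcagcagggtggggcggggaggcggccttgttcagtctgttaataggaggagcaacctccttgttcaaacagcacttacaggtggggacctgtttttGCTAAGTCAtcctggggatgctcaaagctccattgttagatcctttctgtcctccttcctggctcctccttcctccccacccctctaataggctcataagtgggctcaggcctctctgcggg
TXNRD1, chr12:104286782-104287031, plus strand, match on the opposite strand: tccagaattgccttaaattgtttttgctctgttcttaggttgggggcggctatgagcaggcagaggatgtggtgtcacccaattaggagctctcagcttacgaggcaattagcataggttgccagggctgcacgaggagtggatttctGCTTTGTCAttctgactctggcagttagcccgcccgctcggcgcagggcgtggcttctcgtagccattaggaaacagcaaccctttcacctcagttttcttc
The match began 34 bases before the start in GCLM, 137 in ME1, 122 in GPX2 and 102 in TXNRD1. Of the 27 genes, 20 had a window, and 7 of these 20 held the motif (CBR1, EPHX1, GCLM, GPX2, ME1, PGD and TXNRD1). By window it was 8 of 24 (33.3%), against 3830 of 35116 windows of the same length over all genes (10.9%). A match is a run of letters and not a measured binding site.

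The 4 genes with a printed window belong to different branches. GCLM, the modifier subunit of the enzyme that starts glutathione synthesis, had 178, 223 and 201 CPM in A549 and 49.7, 60.7 and 53.5 CPM in H1299, a log2 difference of 1.88 ± 0.14 (SE; edgeR adjusted p = 5.03e-06). ME1, the NADPH-making malic enzyme, had 150.0, 158 and 175 CPM in A549 and 18.9, 15.5 and 11.9 CPM in H1299. GPX2, a glutathione peroxidase of epithelia, had 354, 215 and 134 CPM in A549 and 0.261, 0.228 and 0.225 CPM in H1299. TXNRD1, thioredoxin reductase, had 1820, 2149 and 1865 CPM in A549 and 351, 503 and 481 CPM in H1299, a log2 difference of 2.13 ± 0.17 (SE).

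Among enzymes of the pentose phosphate pathway, PGD, an NADPH-making dehydrogenase, had 1918, 1556 and 1901 CPM in A549 and 202, 205 and 226 CPM in H1299. Its log2 difference was 3.09 ± 0.14 (SE; edgeR adjusted p = 3.41e-07). TALDO1, a transaldolase, was 1.52 higher on the log2 scale. NQO1, a quinone reductase used as the standard readout of NRF2, had 2548, 2028 and 1947 CPM in A549 and 265, 300.1 and 223 CPM in H1299. SLC7A11, the cystine importer, had 172, 397 and 309 CPM in A549 and 24.3, 13.9 and 29.2 CPM in H1299. The ferritin chains FTH1 and FTL stood at 3565 ± 659.6 and 5610 ± 923 CPM in A549 and at 273 ± 20.1 and 752 ± 71.5 CPM in H1299. NFE2L2, which encodes NRF2 itself, did not pass the test, at 121 ± 4.78 CPM in A549 and 126 ± 2.58 CPM in H1299 (edgeR adjusted p = 0.667).

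KEAP1 mRNA was 64.5, 50.1 and 50.1 CPM in A549 and 66.2, 78.7 and 68.4 CPM in H1299, a log2 difference of -0.37 ± 0.14 (SE; edgeR adjusted p = 0.0469). That call was lost in several alternatives, and centring by chromosome arm gave 0.26 (adjusted p = 0.0796).

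Aldehyde dehydrogenases and enzymes of drug metabolism lay the same way. Of 15 aldehyde dehydrogenases tested, 9 were higher and 1 lower in A549, with a median of 1.00. The called share was 66.7%, against 62% of all genes. ALDH1A1, a retinal-oxidising enzyme, had 9186, 8814 and 10004 CPM in A549 and 0.0326, 0.0571 and 0.0901 CPM in H1299. ALDH3A1 had 1210.5, 1023 and 747 CPM in A549 and 1 count in all of H1299, a ratio of 86870 (95% counting interval 15591 to 3431232). ALDH2, the mitochondrial enzyme of ethanol oxidation, stood at 74.9 ± 4.54 CPM in A549 and 0.510 ± 0.225 CPM in H1299. Of 22 genes of drug metabolism and transport, 16 were higher and 2 lower, with a median of 3.85. ABCC2, an efflux pump of conjugates counted with the NRF2 targets, had 426, 569.9 and 569 CPM in A549 and 0.489, 0.428 and 0.676 CPM in H1299. ABCG2, an efflux pump of many drugs, had 128, 125 and 105 CPM in A549 and 0.0652, 0 and 0.0901 CPM in H1299. TPMT, which methylates thiopurines, was lower, at 16.9 ± 2.29 CPM in A549 and 64.3 ± 3.88 CPM in H1299.

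Cancer-testis antigens, genes of the germ line that tumours can express, lay the other way. All 17 tested of 30 on the list were lower in A549, and 16 were at least 4-fold lower. None of the 17 overlapped between the lines, and neither did 69.3% of all genes tested. Of the 17, 10 had no count in A549. MAGEA1, MAGEA3, MAGEA4 and MAGEA10 had 1 to 3 counts each over the A549 libraries together. All of these genes were tested only through H1299. Their direction was therefore fixed in advance. The fitted median was -9.82, and -8.23 with genes at no count set to their bound. The whole list summed to 3.83 to 9.22 CPM in A549 and to 931 to 981 CPM in H1299. MAGEA4 had 0, 0.0485 and 0 CPM in A549 and 511, 483 and 455 CPM in H1299. MAGEA6 had 0 counts in A549 and 81.1, 81.5 and 74.8 CPM in H1299, at least 1446-fold lower in A549, and GAGE2A was at least 556-fold lower. The MAGEA, GAGE and CTAG genes lie in near-identical copies on the X chromosome, so the split between copies is uncertain. The gene under 4-fold was XAGE1A, at 8.60, 3.15 and 5.11 CPM in A549 and 12, 11.7 and 10.4 CPM in H1299, and its call was lost without H1299 replicate 1 (edgeR adjusted p = 0.058).

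Epithelial genes were higher in A549. Of 26 tested, 20 were higher and 1 lower, with a median of 5.09 (5.03 with bounds). KRT7, a keratin of simple epithelia, had 1920.1, 1538 and 1539 CPM in A549 and 0.163, 0.171 and 0.135 CPM in H1299. CDH1, the epithelial E-cadherin, had 35.5, 35.4 and 58.9 CPM in A549 and 0.163, 0.200 and 0.0901 CPM in H1299, a log2 difference of 8.05 ± 0.35 (SE; edgeR adjusted p = 3.1e-07). ELF3, an epithelial transcription factor, had 306, 209 and 223 CPM in A549 and 0 counts in H1299, at least 7097-fold higher. The desmosome genes DSP and JUP stood at 145 ± 40.0 and 268 ± 95.9 CPM in A549 and at 0.351 ± 0.117 and 2.58 ± 0.688 CPM in H1299. KRT8 and KRT18, the keratin pair of simple epithelia, were expressed in both lines, at 2024 ± 559 and 1766 ± 583 CPM in A549 and 101 ± 30.4 and 214 ± 40.8 CPM in H1299. EPCAM, an adhesion protein of most carcinomas, had 1.50, 2.13 and 4.94 CPM in A549 and 3 counts in H1299. GRHL2, an epithelial transcription factor, had no count in any of the 6 libraries. The gene called lower in A549 was CDH3, P-cadherin, at 0.199 ± 0.0385 CPM in A549 and 1.82 ± 0.713 CPM in H1299.

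Genes counted as mesenchymal were also higher in A549 more often than lower, 13 against 6 of 21 tested, with a median of 1.25, or 2.59 in the knockout libraries. CDH2, the N-cadherin of mesenchymal cells, had 54.3, 82.8 and 95.2 CPM in A549 and 0 counts in H1299, at least 2300-fold higher. S100A4 had 635, 408 and 339 CPM in A549 and 0.782, 0.942 and 0.406 CPM in H1299. FN1, fibronectin, varied within A549, at 1939, 2816 and 382 CPM, against 38.5, 39.9 and 31.8 CPM in H1299. VIM, vimentin, went the other way, at 1353, 1112 and 1036 CPM in A549 and 2717, 2650.1 and 2315 CPM in H1299, a log2 difference of -1.13 ± 0.14 (SE; edgeR adjusted p = 0.000128). ZEB1, a repressor of E-cadherin, was lower in A549 as well (34.5 ± 8.5 CPM in A549, 66.6 ± 5.40 CPM in H1299). Its paralog ZEB2 was higher, at 10.3 ± 3.22 CPM in A549 and 1.37, 0.143 and 0.270 CPM in the H1299 libraries. Its log2 difference was 4.09, and 5.68 without H1299 replicate 1.

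Among matrix genes, the collagens and laminins were mostly higher in A549, and the matricellular proteins were not. Among collagens, laminins and other basement membrane genes, 20 of 31 tested were higher and 7 lower, with a median of 2.01. Without H1299 replicate 3 the median was 3.47, and without H1299 replicate 2 it was 3.21, with 4 lower. COL4A6, a basement membrane chain, had 99.7, 141 and 77.7 CPM in A549 and 0 counts in H1299. The basement membrane pair COL4A1 and COL4A2 had 35.6, 57.4 and 135 CPM, and 109.7, 148 and 212 CPM, in A549 against 0 counts and 1 count in H1299. COL5A2, LAMB1 and COL7A1 stood at 358 ± 50.5, 484 ± 6.74 and 112 ± 6.39 CPM in A549 and at 0.878 ± 0.243, 8.72 ± 2.69 and 1.32 ± 0.307 CPM in H1299. COL6A1, a chain of collagen VI, was lower, at 18.4 ± 4.41 CPM in A549 and 139 ± 10.6 CPM in H1299. Matricellular and matrix proteins divided nearly evenly, with 8 higher and 7 lower of 18 and a median of 0.39, and 7 each way without TMM scaling. That median was 0.66 without H1299 replicate 1, 0.89 without H1299 replicate 2, and 0.73 without H1299 replicate 3 or A549 replicate 3. FBN2, fibrillin-2, had 78.5, 172 and 187 CPM in A549 and 0 counts in H1299. LTBP2, a latent TGF-beta binding protein, was lower, at 22.4 ± 7.73 CPM in A549 and 207 ± 37.9 CPM in H1299.

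Of 24 integrins, 14 were higher and 3 lower in A549, with a median of 0.73, or 0.36 in the knockout libraries. Their called share was 70.8%, against 62% of all genes. ITGA4, the alpha-4 chain of leukocyte and neural crest integrins, had 0.872, 1.36 and 0.281 CPM in A549 and 237, 208 and 238 CPM in H1299. ITGA6 was lower too, at 141 ± 23.5 CPM in A549 and 656 ± 116 CPM in H1299, while ITGB4, its partner in hemidesmosomes, was higher, at 57.8 ± 11.8 CPM in A549 and 6.73 ± 2.57 CPM in H1299. Among cadherins and other adhesion genes, 13 of 19 tested were higher and 3 lower, with a median of 2.97. CD24, a surface glycoprotein, had 347, 479 and 288 CPM in A549 and 0.0652, 0.171 and 0.0451 CPM in H1299. Of 26 proteases and inhibitors, 16 were higher and 6 lower, with a median of 0.85. MMP16, a membrane metalloprotease, had 0.0623, 0.145 and 0 CPM in A549 and 129, 70.8 and 91.8 CPM in H1299. TIMP4, a metalloprotease inhibitor, had 5.17, 5.33 and 5.44 CPM in A549 and 0 counts in H1299.

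Genes typical of liver and gut were higher in A549. Of 18 tested of 32 on the list, 14 were higher and 2 lower, with a median of 7.85, or 6.59 with bounds. FGL1, a secreted liver protein, had 28.0, 20.5 and 11.9 CPM in A549 and 0 counts in H1299, at least 584-fold higher. HNF4A, a regulator of liver and gut genes, had 18.5, 23.7 and 48.1 CPM in A549 against 2 counts in H1299. The fibrinogen chain FGA had 14.9, 4.02 and 26.8 CPM in A549 and 0 counts in H1299. CPS1, the first enzyme of the urea cycle, varied within A549, at 261, 84.4 and 2.58 CPM, against 0.456, 0.0285 and 0.406 CPM in H1299. Its log2 difference was 8.68 ± 1.6 (SE; edgeR adjusted p = 0.00128), 7.30 without A549 replicate 1 and not called by limma-voom (adjusted p = 0.0509). GATA6, an endodermal transcription factor, was lower, at 1.73 ± 0.403 CPM in A549 and 10.3 ± 0.847 CPM in H1299.

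Of 30 alveolar and airway genes, 16 had enough counts to be tested, with 7 higher and 3 lower and a median of 0.35. The called share was 62.5%, against 62% of all genes. In the knockout libraries 10 were higher and 3 lower, with a median of 1.01. NKX2-1, the lung lineage factor, had 0 counts in A549 and 1 count in H1299, and SFTPC, surfactant protein C of alveolar type II cells, had 0, 0.0970 and 0 CPM in A549 and 0 counts in H1299. AGR2, a secretory cell disulfide isomerase, had 226, 91.9 and 206 CPM in A549 and 0 counts in H1299. MUC5AC, an airway mucin, had 10.5, 12 and 83.4 CPM in A549 and 0 counts in H1299. SOX9, of distal lung progenitors, was lower, at 19.1 ± 3.11 CPM in A549 and 105 ± 18.5 CPM in H1299. FOXA1 and FOXA2, pioneer factors of endoderm, were higher, at 16.5 ± 7.55 and 30.6 ± 3.82 CPM in A549 and 0.287 ± 0.0967 and 3.13 ± 1.06 CPM in H1299. In bulk libraries such as these, fewer cells of a kind and less RNA per cell cannot be told apart.

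Complement and coagulation genes, many of them liver products, were tested in 26 of 30 cases. In A549 18 were higher and 7 lower, with a median of 2.96. C5 had 269.8, 208 and 264 CPM in A549 and 3.75, 2.62 and 2.25 CPM in H1299, and CLU, clusterin, stood at 815 ± 379 CPM in A549 and 47.3 ± 6.75 CPM in H1299. SERPINE2, an inhibitor of thrombin, had 266, 277 and 166 CPM in A549 and 0.587, 1.31 and 0.721 CPM in H1299. PLAUR, the urokinase receptor, was lower, at 18.4 ± 2.29 CPM in A549 and 65.8 ± 6.22 CPM in H1299.

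Lineage transcription factors showed no common direction: 20 were higher and 17 lower of 49 tested, with a median of 0.05, or -0.05 without TMM scaling. NR5A2, a nuclear receptor of liver and pancreas, had 66.2, 73.5 and 30.4 CPM in A549 and 0 counts in H1299. PPARG, the nuclear receptor of fat cells, had 42.8, 37.6 and 40.5 CPM in A549 against 2 counts in H1299. HMGA2, a fetal chromatin protein, had 59.6, 40.1 and 68.1 CPM in A549 and 1384, 1174 and 1141 CPM in H1299. LIN28B, which blocks let-7 maturation, had 4.55, 4.99 and 10.1 CPM in A549 and 211, 167 and 193 CPM in H1299, a log2 difference of -4.86 ± 0.30 (SE; edgeR adjusted p = 1.93e-06).

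HOX genes, which record position along the body axis, differed gene by gene within each cluster. Of 31 tested, 8 were higher and 14 lower in A549, with a median of -0.39, or -0.24 without A549 replicate 1. The called share was 71%, against 62% of all genes. In the knockout libraries the same contrast gave 12 higher and 13 lower, with a median of 0.07. The HOXB cluster summed to 88.0 CPM in A549 and 211 CPM in H1299, with 2 members higher and 4 lower, and the HOXA cluster to 38.4 CPM in A549 and 49.9 CPM in H1299, with 3 higher and 5 lower. HOXB4 had 0.748, 0.242 and 0.449 CPM in A549 and 34.0, 35.7 and 36.2 CPM in H1299, and HOXB2 had 3.12, 1.45 and 2.13 CPM in A549 and 47.8, 48.6 and 41.1 CPM in H1299. HOXA9 had 0.125, 0.194 and 0.617 CPM in A549 and 15.4, 15.0 and 14.1 CPM in H1299. At the other end of its cluster HOXA13 was higher, at 8.72, 8.97 and 11.2 CPM in A549 and 0.326, 1.71 and 0.0901 CPM in H1299. HOXC13 was higher as well, at 30.4, 23.5 and 6.45 CPM in A549 and 0.847, 1.40 and 0.991 CPM in H1299. The HOXC cluster summed to 41.2 CPM in A549 and 54.8 CPM in H1299 (1 higher, 4 lower of 7), and HOXD to 8.5 CPM in A549 and 6.45 CPM in H1299 (2 higher, 1 lower of 4).

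**Figure D3:**
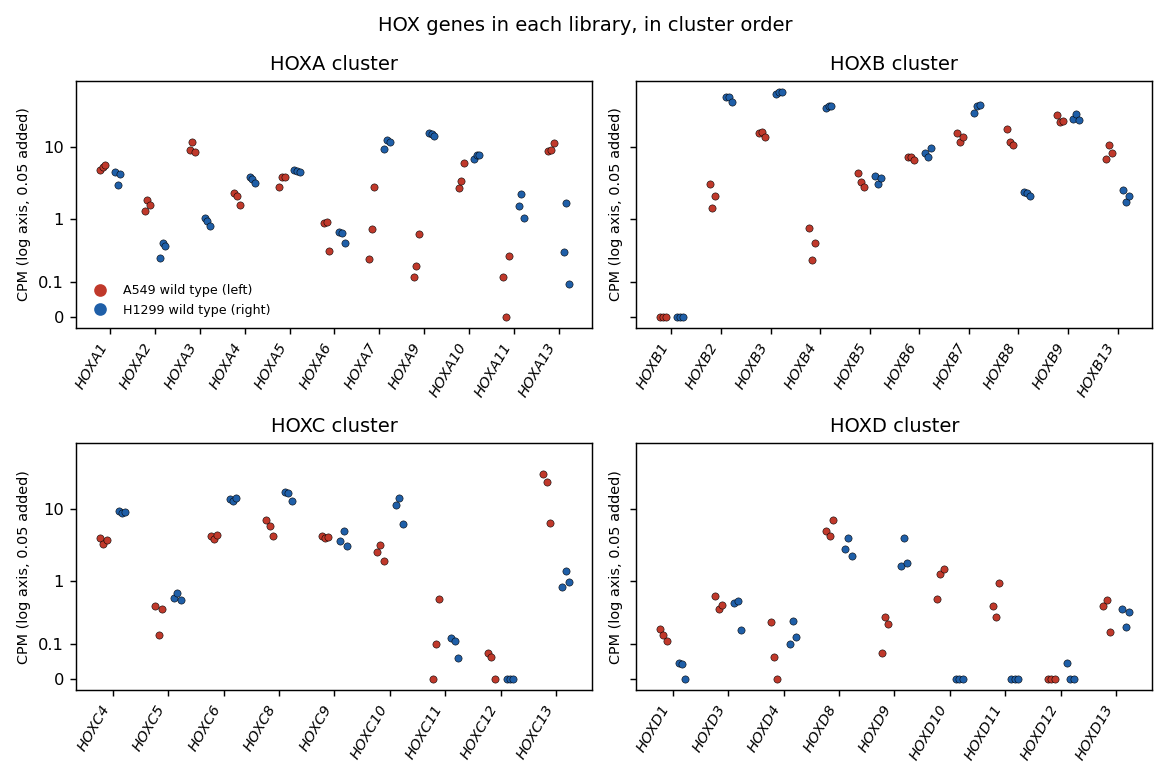
Each HOX gene in each library, in cluster order (vertical axes, CPM on a log scale with 0.05 added; A549 wild type in red on the left, H1299 wild type in blue on the right, 3 libraries each). HOXA9, HOXB2 and HOXB4 lie lower in A549, and HOXA13 and HOXC13 lie higher.

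Known drivers of lung cancer divided nearly evenly, as did all genes tested (31.3% higher, 30.7% lower). Of 25 drivers tested, 10 were higher and 8 lower (72.0% called, against 62% of all genes), with a median of -0.06. GC correction gave 9 higher and 12 lower, and centring by chromosome arm a median of 0.22. The median was 0.02 without A549 replicate 3. EGFR had 273, 488 and 493 CPM in A549 and 68.2, 66.3 and 60.8 CPM in H1299, and MET, the receptor of hepatocyte growth factor, had 316, 644 and 399.7 CPM in A549 and 106, 83.3 and 114 CPM in H1299. ERBB2 and NF1 were higher too, by 1.41 and 1.28 on the log2 scale. NRAS, the gene known to be mutant in H1299, had 64.0, 95.7 and 98.4 CPM in A549 and 228, 218 and 252 CPM in H1299, a log2 difference of -1.43 ± 0.17 (SE; edgeR adjusted p = 0.000104). STK11 did not pass the test, at 21.6 ± 3.71 CPM in A549 and 23.5 ± 1.79 CPM in H1299 (edgeR adjusted p = 0.527). It was called higher in A549 when centred by chromosome arm, by 0.50 on the log2 scale (edgeR adjusted p = 0.00468), and lower after GC correction, at -0.26 (edgeR adjusted p = 0.0451). RB1, BRAF and PIK3CA were lower in A549 by log2 differences of -1.004, -1.49 and -1.39.

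Of 27 p53 targets, 16 were higher and 6 lower in A549 (81.5% called, against 62% of all genes), with a median of 1.02. PHLDA3, an inhibitor of AKT, had 38.6, 31.5 and 27.7 CPM in A549 against 2 counts in H1299. SPATA18, of mitochondrial quality control, had 3.30, 4.12 and 3.99 CPM in A549 and 0 counts in H1299. BAX, a pore-forming death protein, was higher, at 96.3 ± 6.62 CPM in A549 and 41.3 ± 1.95 CPM in H1299. The 2 best known targets did not follow. MDM2, a ubiquitin ligase, was lower, at 65.1, 88.7 and 95.8 CPM in A549 and 134, 131 and 142 CPM in H1299 (log2 difference -0.70 ± 0.15, SE; edgeR adjusted p = 0.00336). CDKN1A, the cell cycle inhibitor p21, did not pass the test, at 47.3, 51.2 and 66.8 CPM in A549 and 63.0, 63.6 and 91.2 CPM in H1299 (adjusted p = 0.0967).

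Subunits of the SWI/SNF chromatin remodeller were lower in A549 in 13 of 22 tests and higher in 4, with a median of -0.72. The called share was 77.3%, against 62% of all genes. Without H1299 replicate 1 or 3, 2 were higher. SMARCA4, the ATPase BRG1, had 9.35, 11 and 8.42 CPM in A549 and 14.9, 17.8 and 15.8 CPM in H1299. Its log2 difference was -0.75 ± 0.17 (SE; edgeR adjusted p = 0.00354), and the call was lost when libraries were centred by chromosome arm (adjusted p = 0.535). SMARCA2, the alternative ATPase BRM, was higher, at 37.0, 54.1 and 57.4 CPM in A549 and 10.9, 13.8 and 9.46 CPM in H1299. ARID1A and ARID1B, the DNA-binding subunits, were lower, at 100.3 ± 21.5 and 46.6 ± 9.45 CPM in A549 and 229 ± 26.5 and 147 ± 11.2 CPM in H1299. Other epigenetic regulators were lower in 14 of 29 tests and higher in 4 (62.1% called, against 62% of all genes), with a median of -0.35. That median was -0.15 without A549 replicate 1 and -0.56 without A549 replicate 3. HDAC9, a class II deacetylase, had 0.436, 0.194 and 0.561 CPM in A549 and 31.3, 30.4 and 30.7 CPM in H1299. EZH2, the PRC2 methyltransferase, stood at 65.7 ± 5.47 CPM in A549 and 159 ± 6.18 CPM in H1299, while CBX2, a PRC1 subunit, was higher (32.3 ± 4.28 CPM in A549, 5.01 ± 1.16 CPM in H1299).

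Cell cycle genes were lower in A549 more often than higher, 12 against 4 of 26 for G1/S (median -0.41) and 15 against 4 of 26 for G2/M (median -0.47). The called shares were 61.5% for G1/S and 73.1% for G2/M, against 62% of all genes. Centred by chromosome arm, 10 G1/S genes were lower and 6 higher, with a median of -0.09, and in the knockout libraries 13 G2/M genes were lower and 7 higher, with a median of -0.21. CDK6, a G1 kinase, had 48.6, 102 and 141 CPM in A549 and 374, 364 and 351 CPM in H1299, while CCND3, a cyclin of the same kinase, had 242, 218 and 240.2 CPM in A549 and 42.8, 45.6 and 48.8 CPM in H1299. TTK and UBE2C, of the spindle checkpoint and mitotic exit, stood at 63.9 ± 10.4 and 102 ± 12.5 CPM in A549 and 173 ± 7.91 and 232 ± 6.53 CPM in H1299. TOP2A, the mitotic topoisomerase, was higher, at 918, 1257 and 1559 CPM in A549 and 522, 585 and 549.99 CPM in H1299.

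Growth factor genes differed between ligands. In the EGF receptor family and its ligands, 8 of 15 were higher and 5 lower, with a median of 1.41. EREG, epiregulin, had 101, 144 and 116 CPM in A549 and 0 counts in H1299, and NRG1, neuregulin, had 258, 409 and 224 CPM in A549 against 2 counts in H1299. HBEGF was lower, at 5.61, 3.83 and 4.71 CPM in A549 and 42.4, 27.1 and 30.5 CPM in H1299, as was ERRFI1, a feedback inhibitor of EGFR, at 145 ± 7.16 CPM in A549 and 1082 ± 112 CPM in H1299. Over other receptor tyrosine kinases and ligands, 19 of 38 were higher and 11 lower, with a median of 0.76. FGF5 had 0, 0 and 0.505 CPM in A549 and 111, 73.9 and 86.4 CPM in H1299, and IGF2 had 4.42, 2.04 and 6.79 CPM in A549 and 159, 73.7 and 56.2 CPM in H1299. MERTK, a receptor of GAS6, was lower in A549 by a log2 difference of -3.73, and IGF1R higher by 2.21.

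Of 20 genes read as output of the MAPK pathway, 11 were lower and 7 higher in A549, with a median of -0.67. The feedback inhibitors SPRY4 and SPRY1 had 12.8 ± 2.04 and 2.57 ± 0.254 CPM in A549 and 307 ± 109.6 and 29 ± 7.75 CPM in H1299, and FOSL1, an AP-1 subunit, had 29.4 ± 10.9 CPM in A549 and 192 ± 23.9 CPM in H1299. DUSP4, an ERK phosphatase, lay opposite, at 249, 241 and 239 CPM in A549 and 0 counts in H1299, at least 7123-fold higher. The immediate early genes EGR1 and FOS were higher, at 209.6 ± 63.3 and 173 ± 69.4 CPM in A549 and 10.7 ± 5.12 and 10.5 ± 1.41 CPM in H1299.

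Genes linked to LKB1 loss and CREB were higher in A549 in 15 of 21 tests and lower in 2, with a median of 3.53. PTGS2, cyclooxygenase-2, had 68.5, 83.2 and 100.3 CPM in A549 and 0 counts in H1299, and SIK1, a kinase downstream of LKB1, had 15.0, 14.6 and 19.98 CPM in A549 and 0 counts in H1299. IRS2, an insulin receptor substrate, had 54.4, 35.9 and 49.6 CPM in A549 and 0 counts in H1299. NR4A1 and PDE4D, both CREB targets, stood at 123 ± 39.3 and 214 ± 73.8 CPM in A549 and 10.7 ± 1.77 and 4.59 ± 1.32 CPM in H1299. CRTC2, a CREB coactivator, was lower, at 36.7 ± 4.90 CPM in A549 and 68.5 ± 1.74 CPM in H1299.

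In the TGF-beta and BMP pathway 19 of 34 genes were higher and 6 lower (73.5% called, against 62% of all genes), with a median of 0.69. INHBB, the activin B chain, had 87.5, 50.0 and 41.4 CPM in A549 against 1 count in H1299. GREM1, a BMP antagonist, was high in 1 library only, at 1.37, 0.824 and 74.3 CPM in A549, with 0 counts in H1299. TGFB2 had 116, 124 and 188 CPM in A549 and 1.08, 8.47 and 2.52 CPM in H1299, whereas TGFB3 was lower, at 1.07 ± 0.0518 CPM in A549 and 9.18 ± 0.781 CPM in H1299. The log2 difference of TGFB2 was 5.11, and 6.35 without H1299 replicate 2. In the Wnt pathway 16 of 30 were higher and 5 lower (70% called, against 62% of all genes), with a median of 0.78. RSPO3, an agonist of LGR receptors, had 162, 257 and 199.7 CPM in A549 and 0 counts in H1299, and WNT7B had 124, 170.4 and 141 CPM in A549 and 0.0978, 0.0285 and 0.0451 CPM in H1299. DKK1, a secreted Wnt inhibitor, stood at 472 ± 54.1 CPM in A549 and 12.6 ± 1.94 CPM in H1299. Genes of the YAP and TEAD pathway, its regulators and targets together, showed no common direction, with 9 higher and 10 lower of 26. Their median was -0.18, and 73.1% were called, against 62% of all genes. After GC correction 9 were higher and 13 lower, with a median of -0.41. ANKRD1, a standard YAP target, had 75.7, 65.6 and 25.3 CPM in A549 and 0.0326, 0.0856 and 0 CPM in H1299, while LATS1, a kinase that restrains YAP, was lower, at 30.9 ± 10.7 CPM in A549 and 116 ± 20.2 CPM in H1299.

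Of 19 cytokines and chemokines, 14 were higher and 2 lower in A549, with a median of 4.21. CXCL5, a neutrophil attractant, had 214, 229 and 345 CPM in A549 and 0 counts in H1299. IL18 had 82.9, 53.3 and 56.3 CPM in A549 against 1 count in H1299. ICAM1, an adhesion receptor induced by cytokines, was lower, at 1.06, 0.582 and 2.53 CPM in A549 and 139, 107 and 133 CPM in H1299. Of 23 interferon-stimulated genes, 9 were higher and 6 lower (65.2% called, against 62% of all genes), with a median of 0.46. That median was -0.01 when centred by chromosome arm and 0.22 without A549 replicate 1. IFITM3, which restricts virus entry, was 7.79, 5.48 and 4.77 CPM in A549 and 47.6, 45.1 and 46.2 CPM in H1299, while IFIT5 was higher (22.8 ± 3.57 CPM in A549, 4.19 ± 1.21 CPM in H1299).

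Of 24 genes of HLA and antigen processing, 9 were higher and 4 lower (54.2% called, against 62% of all genes), with a median of 0.32. The median was 0.12 without A549 replicate 1, with 8 higher and 6 lower, 0.57 without A549 replicate 3, and 0.09 after GC correction, with 8 higher and 7 lower. HLA-B was lower, at 22 ± 6.11 CPM in A549 and 51.6 ± 6.56 CPM in H1299, and TAP2, a peptide transporter, at 35.4 ± 3.94 CPM in A549 and 91.2 ± 4.32 CPM in H1299. HLA reads may be split among similar genes. Sensors of RNA and DNA were lower in 8 of 16 tests and higher in 5, with a median of -0.90, but in the knockout libraries 8 were higher and 6 lower, with a median of 0.24. NLRP1, an inflammasome sensor, had 0.872, 0.533 and 1.01 CPM in A549 and 80.5, 69.8 and 78.1 CPM in H1299. CGAS, the cytosolic DNA sensor, had 14.2, 14.4 and 13.5 CPM in A549 and 47.1, 44.7 and 44.3 CPM in H1299. TMEM173, its adaptor STING, had 4.61, 0.533 and 0.730 CPM in A549 and 20.4, 14.1 and 15.5 CPM in H1299, a log2 difference of -3.14 (SE 0.63) that was -4.71 without A549 replicate 1. GSDME and GSDMD, pore-forming gasdermins, were higher, at 58.3 ± 7.84 and 23.6 ± 8.47 CPM in A549 and 4.2 ± 1.35 and 2.67 ± 0.853 CPM in H1299.

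Of 32 genes of hypoxia and glycolysis, 19 were higher and 5 lower in A549 (75.0% called, against 62% of all genes), with a median of 0.76. LDHA, lactate dehydrogenase, stood at 2336 ± 12.2 CPM in A549 and 796 ± 81.8 CPM in H1299. HK2, a hexokinase, went the other way, at 0.499, 0.970 and 0.786 CPM in A549 and 54.4, 33.6 and 42.4 CPM in H1299, a log2 difference of -5.82 ± 0.28 (SE; edgeR adjusted p = 5.46e-07). Genes of cholesterol and fatty acid synthesis were split 10 and 10 of 26 (76.9% called, against 62% of all genes), with a median of 0.15. When centred by chromosome arm, the split was 10 and 7, with a median of -0.10. Uncentred, the median was 0.24 without A549 replicate 1 and 0.06 without A549 replicate 3. FADS2, a desaturase, had 449.6, 438 and 563 CPM in A549 and 12.2, 16.1 and 13.9 CPM in H1299. LSS, the lanosterol synthase of cholesterol synthesis, was lower, at 32.5 ± 5.39 CPM in A549 and 96.9 ± 4.09 CPM in H1299. Of 26 genes of ATF4 and amino acid supply, 12 were higher and 6 lower (69.2% called, against 62% of all genes), with a median of 0.46. DDIT4, an inhibitor of mTORC1, had 136, 99.4 and 86.8 CPM in A549 and 3.91, 3.22 and 4.24 CPM in H1299. ASNS, asparagine synthetase, was lower, at 105, 115 and 144 CPM in A549 and 280.2, 177 and 337 CPM in H1299.

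Ion channels and neurotransmitter receptors were higher in 19 of 34 tests and lower in 11, with a median of 1.09. TRPA1, an irritant-gated channel, had 62.9, 50.6 and 19.6 CPM in A549 and 0 counts in H1299, whereas TRPV2 had 0.374, 0.339 and 0.393 CPM in A549 and 118, 83.9 and 92.8 CPM in H1299. Of the GABA receptor subunits, GABRA5 had 34.0, 39.8 and 108 CPM in A549 against 1 count in H1299, and GABRA3 had 0 counts in A549 and 8.44, 7.96 and 9.19 CPM in H1299. Neuroendocrine and neuronal genes were mostly too low to test, 12 of 30, with 5 higher and 5 lower and a median of -0.22 that was -0.52 without A549 replicate 3, -0.08 without H1299 replicate 2 and -0.07 without H1299 replicate 3. NEFH, a neurofilament, had 0, 0.145 and 0 CPM in A549 and 125, 144 and 155 CPM in H1299. SCG2, a granin of secretory granules, had 1.87, 1.12 and 1.85 CPM in A549 and 30.4, 21 and 29.2 CPM in H1299.

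Of 57 cytosolic ribosomal proteins, which every cell uses, 13 were higher and 8 lower (36.8% called), with a median of 0.15. The balance was the other way without A549 replicate 1, with 13 higher, 19 lower and a median of -0.02, and in the knockout libraries, with 18 higher, 23 lower and a median of -0.06. After GC correction 11 were higher and 12 lower, with a median of -0.02, and the median was 0.27 without A549 replicate 2 and 0.26 without A549 replicate 3. RPS18 was lower, at 969, 691 and 675 CPM in A549 and 1672, 1483 and 1475 CPM in H1299. RPL22L1, a paralog of RPL22, was the ribosomal gene furthest apart, at 134 ± 28.4 CPM in A549 and 30.8 ± 5.56 CPM in H1299. Of 48 respiratory chain genes, 13 were higher and 14 lower (56.2% called, against 62% of all genes), with a median of -0.08. That median was 0.02 without A549 replicate 2 and 0.03 without A549 replicate 3. Without A549 replicate 1, 13 were higher and 22 lower, with a median of -0.19. Of 40 genes of the proteasome, its assembly factors and its regulators, 11 were higher and 13 lower (60% called), with a median of -0.07. Centred by chromosome arm, the median was 0.04. The balance turned on single libraries, with 8 higher and 5 lower without H1299 replicate 3, 9 and 6 without H1299 replicate 1, 11 and 7 without A549 replicate 2, and 10 and 8 without A549 replicate 3. PSMB1, a beta subunit of the core particle, had 173, 126 and 135 CPM in A549 and 668, 439.7 and 485 CPM in H1299, and PSMD11, of the lid, had 245, 292 and 297 CPM in A549 and 112, 106 and 104 CPM in H1299. No member of these 3 lists was 4-fold apart except RPL22L1. PSME4, the gene the study knocked out, had 141, 194 and 195 CPM in A549 and 255, 217 and 242 CPM in H1299. Its log2 difference was -0.43 ± 0.15 (SE; edgeR adjusted p = 0.033), and the call was lost without H1299 replicate 1 (0.11) or replicate 3 (0.0965).

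**Figure D4:**
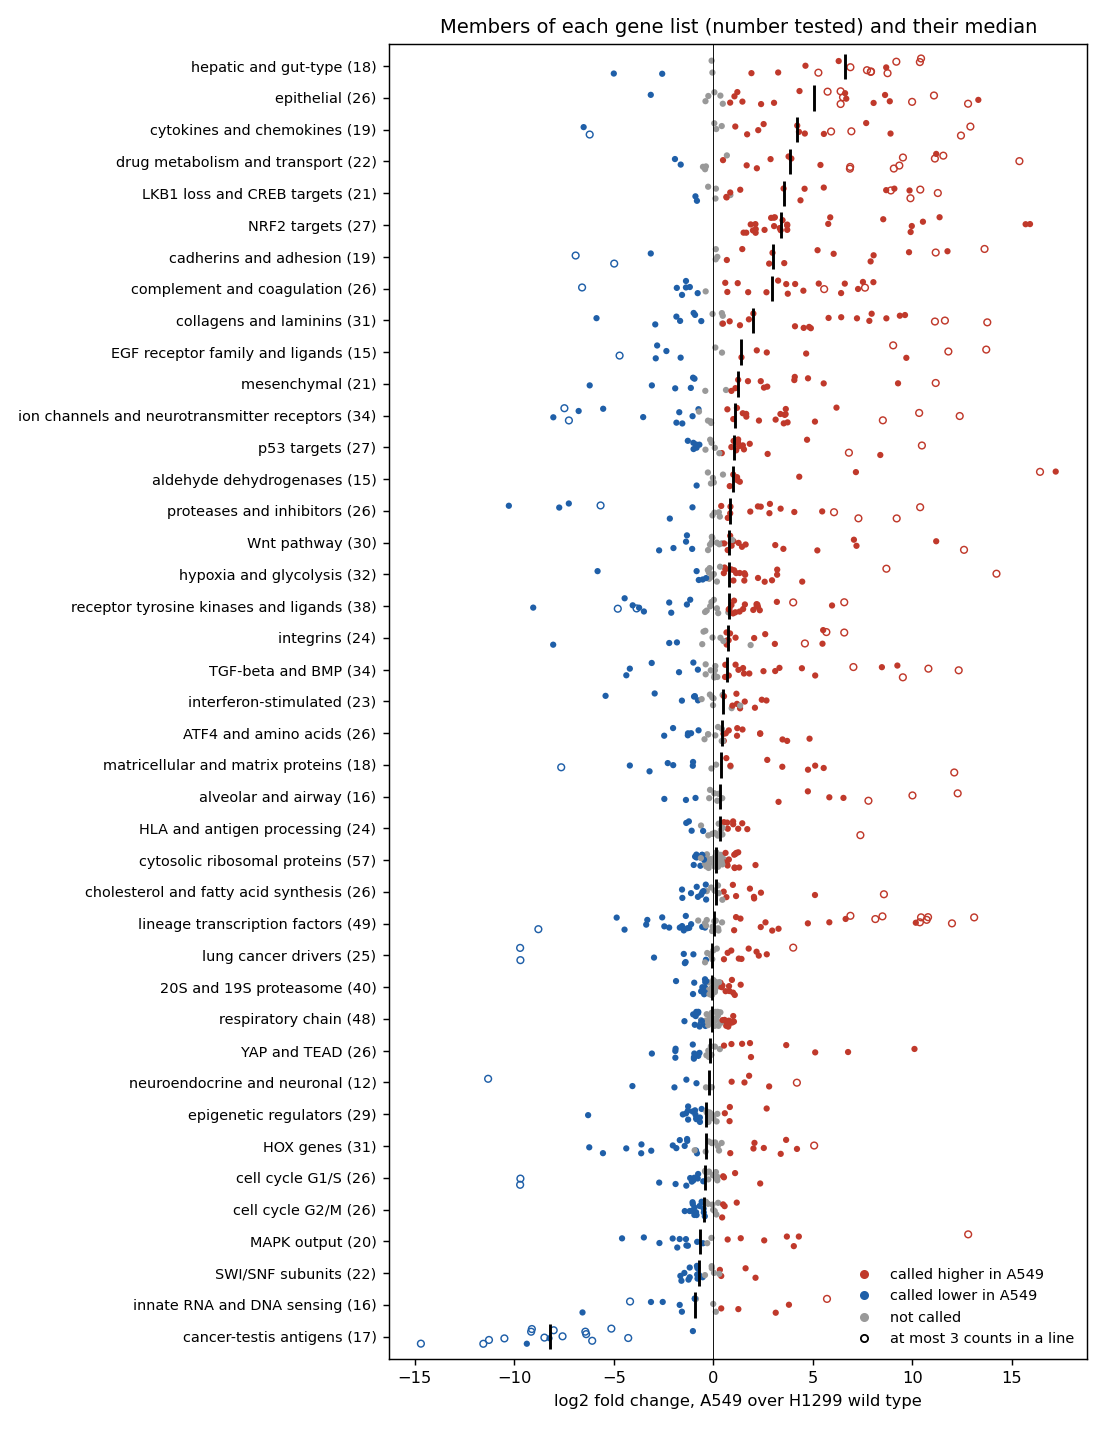
The log2 fold change of each tested member of 41 gene lists (horizontal axis, A549 over H1299, with the number tested in brackets). Genes are in red where higher in A549, blue where lower and grey where not called. Open circles are genes with at most 3 counts in a line. They are drawn at their bound where that line had 0 counts, and at the count ratio where it had 1 to 3. Black bars are medians of the values drawn. The hepatic list is at the top and the cancer-testis list at the bottom. Their medians with only genes at 0 counts set to the bound are 6.59 and -8.23.

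Median levels differed between the lines on most chromosome arms. Each gene's log2 CPM was taken as its deviation from its mean over the 6 libraries, and arms were compared by the median deviation of their genes. Of 41 arms, 33 differed between the lines (80.5%; limma over arms, adjusted p under 0.05), 19 of them higher in A549 (46.3%) and 14 lower. The arm furthest apart was 6q, at -0.653, -0.516 and -0.372 in A549 and 0.606, 0.416 and 0.516 in H1299, a difference of -1.03 ± 0.0781 (SE, 325 genes; limma adjusted p = 1.06e-05). Arm 3q was lower by a difference of -0.726 and 18p by -0.632. On the other side, 8p was higher by 0.758, at 0.438, 0.550 and 0.157 in A549 and -0.350, -0.365 and -0.413 in H1299, followed by 10q at 0.637 and 17q at 0.593. Arms 1q, 3p, 4q, 8q, 16q, 18q, 19q and 22q were not called, and 22q came nearest (adjusted p = 0.0536). The A549 libraries did not move as one on 8q, at 0.176, 0.188 and -0.166, and on 19p, at -0.080, -0.247 and -0.505. No copy number was measured.

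**Figure D5:**
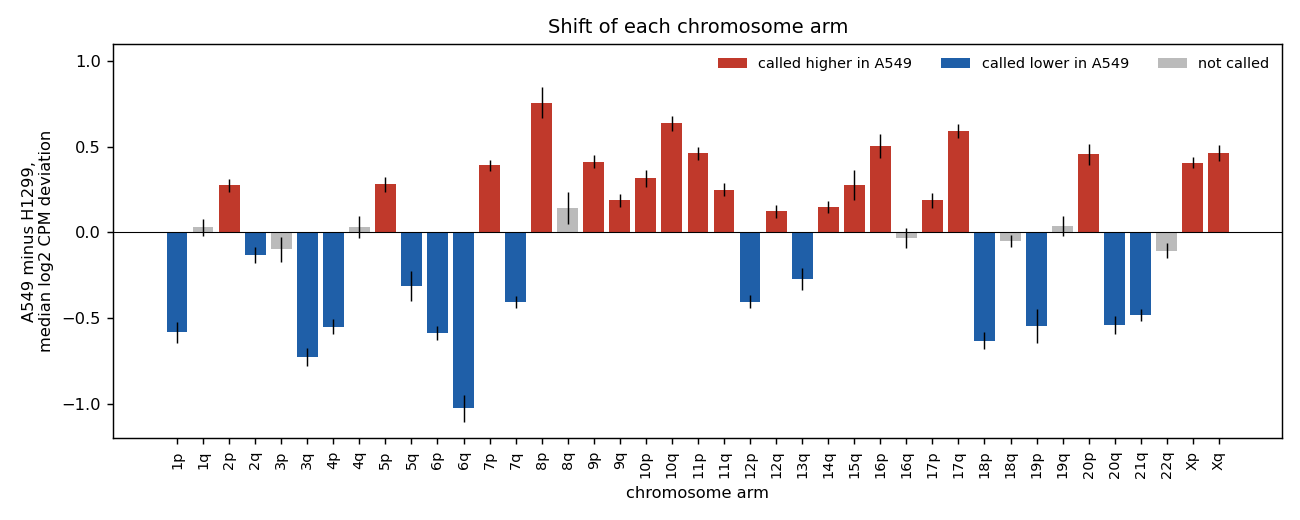
Difference in median log2 CPM deviation between A549 and H1299 wild type for 41 chromosome arms (bars; error bars are SE from limma, n = 3 libraries each). Arm 6q is the lowest at -1.03 and 8p the highest at 0.758.

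Genes with at most 3 counts in one line also lay side by side. Among 13387 protein-coding genes expressed in either line, 234 (1.75%) were at or under 3 counts in A549 and 382 (2.85%) in H1299, and each line had 11 runs of at least 3 such neighbours. In A549 the longest were 5 neighbouring symbols at chr19:11965037-12081565, 4 of them the zinc finger genes ZNF763, ZNF433, ZNF878 and ZNF844, and 5 GAGE genes at chrX:49303669-49596827. Of the 11 A549 runs, 5 held zinc finger genes of chromosome 19 and 4 held GAGE, MAGEA or CTAG genes of the X chromosome. In H1299 the longest was the UGT1A cluster of glucuronosyltransferases, 9 overlapping genes at chr2:233617645-233773299, followed by 5 hair and type II keratins from KRT86 to KRT4 at chr12:52249300-52814551. The 3 fibrinogen genes at chr4:154562956-154612967 and the neighbours IRS2, COL4A1 and COL4A2 at chr13:109752698-110513209 were further runs in H1299.

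The A549 libraries differed among themselves more than the H1299 libraries did. Among genes averaging at least 10 CPM, 606 of 10989 (5.51%) spanned at least 2-fold between the 3 A549 libraries, against 84 of 10596 (0.793%) between the 3 H1299 libraries. A span of at least 4-fold was seen in 53 genes in A549 and 13 in H1299. FN1, CPS1 and MUC5AC, described above, are among the A549 genes with such a span.

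The same contrast in the 6 PA200 knockout libraries shares no sample with the wild-type one. Of 21605 genes tested there, 15517 (71.8%) differed between the lines. Over the 20132 genes tested in both, 11061 were called in the same direction, which is 88.8% of 12454 wild-type calls and 76% of 14553 knockout calls. Of 3576 wild-type calls of at least 4-fold, 3514 (98.3%) were called the same way in the knockout libraries. Only 67 genes were called in opposite directions, 15 of them at least 2-fold each way. ADAM23, a disintegrin without protease activity, was higher in wild-type A549, at 20.5, 17.6 and 18.1 CPM against 0.456, 0.428 and 0.360 CPM in H1299, and lower in knockout A549 by a log2 difference of -2.16. LIPG, endothelial lipase, was lower in wild-type A549, at 0.125, 0.145 and 0.112 CPM against 24.4, 2.57 and 4.73 CPM in H1299, and higher in knockout A549 by 2.32. FHAD1 had a log2 difference of 1.20 between wild-type and -3.05 between knockout libraries.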

How the data were processed

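RNA was sequenced from wild-type and PA200 knockout A549 and H1299 cells. Per the labels' protocols, a TruSeq stranded kit was used on 1 µg of RNA. The authors deposited gene counts, in a table for each line. The submitters' processing notes name bcl2fastq 2.20.0.422 and the mouse build GRCm38.p6, while the rows carry human symbols. The aligner, counter and strand setting are not given in the sources used here.

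Tables were joined by symbol. Genes passing filterByExpr (minimum count 10) in the 6 wild-type libraries were scaled by TMM and tested with edgeR 4.0.16 (R 4.3.3), with Benjamini-Hochberg adjustment over all of them at 0.05. An exact permutation test over 3 against 3 libraries (10 splits) cannot go below 0.1. Positions came from GENCODE 29, which matched 95.1% of symbols and 99.1% of counts. The 37 genes of the mitochondrial genome were at 0 throughout. Chromosome arms of at least 30 genes were tested with limma 3.58.1. Promoters came from RefSeq.

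The comparison, its 43 lists (1267 genes, of which 1260 were found) and the tests were chosen with earlier results of these data known. Named genes were the 12 highest and 12 lowest called differences, the 8 most abundant genes each way with at most 3 counts in the other line, up to 3 members each way of each list, and cell type markers; some of these are not reported here. Folds against 0 counts take 3 counts over the group as a floor, and ratios on 1 to 3 counts carry a 95% counting interval. The fit was tested on simulated data. Alternatives changed the scaling, filter, tool (DESeq2 1.42.0, limma-voom), threshold, depth, GC content, chromosome arm centring and the libraries used.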

Additional observations from a re-analysis of the deposited data

How the results depend on the processing

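The count of genes called was within 1.5 times of 12584 in every alternative but the test against a 2-fold change, which gave 5118 (2841 higher, 2277 lower in A549). Without a filter on low counts, 5719 genes were at least 4-fold apart, against 3687. Leaving out 1 library at a time gave 11161 to 13263 calls, 5783 to 6700 higher and 5378 to 6563 lower, 3885 to 4120 at least 4-fold apart, and 31 to 33 arms. GC and length correction moved the median of all genes by -0.103 on the log2 scale and the higher share of calls to 44.6%, against 50.5%.

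Of 349 named genes tested, 267 kept their direction and side of the threshold in every alternative. The sign changed in 12 genes. In the knockout libraries the log2 differences were -2.16 for ADAM23, 0.50 for CDKN1A, 0.13 for FBLN2, -3.05 for FHAD1, 2.32 for LIPG, 0.15 for LOX and 1.74 for TENM3. Centred within chromosome arms, they were -0.17 for BIRC5, 0.18 for CDKN1A, 0.26 for KEAP1, 0.093 for NFE2L2, 0.11 for RPS12 and 0.50 for STK11, which was then called. Leaving out 1 library gave -0.226 to 0.022 for STK11. The causes were not tested.

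No paired analysis was possible because the labels give no replicate numbers that the lines share. In the simulated data, where few genes changed, 10.4% of 1.5-fold changes were recovered. That recovery was not split by gene level or depth. Thinned to 1 depth, 11999 of 19529 genes were called. H1299 libraries were deeper and less spread than A549 libraries, and with 1 table per line no fit can separate the line from its table.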
